A study of Mus musculus with 10 samples.

Results

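The Hox genes encode homeodomain transcription factors that assign position along the head-to-tail axis of the embryo, and in the mouse they lie in 4 clusters, HoxA to HoxD. All genes of a cluster are read in 1 direction, and the gene numbers run from 1 at the 3′ end, active early and toward the head, to 13 at the 5′ end, active late and toward the tail. Trithorax proteins, among them the methyltransferase Kmt2a, place H3K4me3 (histone H3 trimethylated at lysine 4, a mark of active or poised promoters) on Hox promoters, and Polycomb proteins keep the clusters silent where they are not used. The embryonic forebrain lies in front of the domain in which Hox genes are active.

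The members were all protein-coding RefSeq genes of mouse build mm10 whose symbol starts with Hoxa, Hoxb, Hoxc or Hoxd and a number. They came to 39 of 21887 protein-coding genes: 11 in HoxA on chromosome 6 (52155367 to 52260880), 10 in HoxB on chromosome 11 (96194316 to 96368254), 9 in HoxC on chromosome 15 (102921131 to 103036856) and 9 in HoxD on chromosome 2 (74668225 to 74765142). H3K4me3 was mapped by chromatin immunoprecipitation and sequencing in nuclei carrying the neuronal protein NeuN, sorted from dissected hippocampal area CA1. There were 4 libraries from mice labelled CamkdeltaC transgenic and 4 from littermate controls, all male and aged 3 months, which leaves the genotype as the labelled difference. Groups were taken from the sample titles, and each list is named for the same genotype, while a letter code is crossed, A in the descriptions of transgenic samples and C in their list names, and the reverse for controls. CaMKIIδC is a splice form of a CaM kinase II subunit of the heart, and the series title links heart failure to memory impairment. Neither the promoter that drives the transgene nor the strain is named in the sources used here. The treatment protocol describes vehicle for controls and either vehicle or vorinostat, a histone deacetylase inhibitor, for transgenic mice, and no library used here carries a label for either. Whether each library is a separate animal is not stated in the labels, so the p-values here reflect variation between libraries, which may be technical.

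The data were the authors' peak lists, 1 per library, with 51903 to 102285 peaks that covered 37.5 to 57.7 Mb. Read counts are not part of the lists and the depth is unknown, and a stretch without a peak is one where the authors' caller listed none. Transgenic replicate 1 had the most peaks and, at 5.10, the lowest median fold enrichment of the 8 lists. The labelled cell type was checked against marker promoters: all 6 neuronal markers and all 8 markers of CA1 and the forebrain had a peak in all 8 libraries, and 1 of 8 markers of hindbrain and spinal cord neurons did. The same held for 2 of 5 astrocyte markers, 1 of 7 of the oligodendrocyte lineage, 1 of 6 of microglia and blood and 2 of 5 of endothelium and pericytes.

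The letters at 4 Hox start sites are shown first, because CpG-rich start sites elsewhere in the genome almost always carried H3K4me3 in these nuclei while most CpG-rich Hox start sites did not. They are RefSeq sequences of GRCm38.p6 (the coordinates of mm10), from 250 bases before to 50 bases after the listed start, with each CpG in capitals. Hoxd1 is at chr2:74762730-74763029, Hoxd10 at chr2:74691641-74691940, Hoxd13 at chr2:74667975-74668274, all 3 on the plus strand, and Hoxa13 at chr6:52260831-52261130 on the minus strand.
Hoxd1: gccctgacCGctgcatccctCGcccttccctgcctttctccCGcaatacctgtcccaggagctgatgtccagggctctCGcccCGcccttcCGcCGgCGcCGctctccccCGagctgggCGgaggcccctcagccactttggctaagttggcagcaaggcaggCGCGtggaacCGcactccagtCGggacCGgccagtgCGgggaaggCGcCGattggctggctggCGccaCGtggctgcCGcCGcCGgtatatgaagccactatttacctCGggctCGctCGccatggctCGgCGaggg
Hoxd10: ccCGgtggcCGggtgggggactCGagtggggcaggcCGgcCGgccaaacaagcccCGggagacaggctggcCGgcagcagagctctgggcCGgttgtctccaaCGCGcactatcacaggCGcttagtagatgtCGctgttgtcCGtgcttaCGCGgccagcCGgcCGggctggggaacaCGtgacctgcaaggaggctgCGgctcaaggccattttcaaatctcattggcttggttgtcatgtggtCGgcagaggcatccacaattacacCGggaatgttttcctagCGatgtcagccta
Hoxd13: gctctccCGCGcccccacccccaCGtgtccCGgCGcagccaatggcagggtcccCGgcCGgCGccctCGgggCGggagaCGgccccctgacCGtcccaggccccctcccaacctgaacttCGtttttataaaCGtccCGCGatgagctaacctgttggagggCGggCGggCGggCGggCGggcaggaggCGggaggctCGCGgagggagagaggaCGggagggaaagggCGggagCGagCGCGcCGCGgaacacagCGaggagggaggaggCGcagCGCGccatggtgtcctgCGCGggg
Hoxa13: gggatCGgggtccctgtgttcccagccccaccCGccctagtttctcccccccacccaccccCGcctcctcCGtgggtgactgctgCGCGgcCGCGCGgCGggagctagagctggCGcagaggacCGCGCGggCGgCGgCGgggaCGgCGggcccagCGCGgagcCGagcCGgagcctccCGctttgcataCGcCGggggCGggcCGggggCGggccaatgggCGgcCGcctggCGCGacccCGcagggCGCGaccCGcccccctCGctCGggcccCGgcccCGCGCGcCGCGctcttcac

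Within 2 kb of these start sites, Hoxd1 with 29 CpGs and Hoxd10 with 22 had a peak in all 8 libraries. Hoxd13 with 37 CpGs had one in 1 library, and Hoxa13 with 45 had none. Hoxd1 and Hoxd10 are the only 2 of 22 listed Hox start sites with a peak in all 8 libraries. Hoxa13 and Hoxd13 have the highest CpG counts of the 22. The 4 are extremes, so they show no trend of marking with CpG count. Hoxd1 is a gene of the 3′ end of its cluster, Hoxd10 lies in the 5′ part and is known for its role in lumbar motor neurons, and Hoxa13 and Hoxd13 pattern the digits and the urogenital tract. The peaks reached into the printed 300 bases in 8 libraries at Hoxd1 and in 5 at Hoxd10.

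Of the 39 members, 22 had a listed start site in RefSeq, and 9 of these were CpG-rich, meaning a GC content over 50% and a CpG count over 0.6 of the count that base composition predicts. Of the 9, 2 had a peak within 2 kb in all 8 libraries and 4 had a peak in none. Of 7946 CpG-rich start sites of other coding genes, 94.7% had a peak in all 8 and 1.60% in none. Per library, 22.2 to 33.3% of the CpG-rich Hox start sites had a peak, against 95.4 to 97.9% of the others. The Hox share was lower in 8 of 8 libraries, with a mean difference of −70.5 ± 5.76 percentage points (SD, 8 libraries), a description with no test, as is every comparison of Hox genes with other genes here. By median the listed Hox start sites were not poorer in CpG, with 13.5 CpGs in 300 bases, against 13 in the others. The CpG-rich share was 40.9%, against 45.5%. Among the 22, HoxB is represented only by Hoxb1, Hoxb4 and Hoxb8, and HoxC only by Hoxc4. All 9 CpG-rich ones are in HoxA or HoxD. Across the 22 Hox start sites the CpG count and the mean covered length had a Spearman correlation of 0.16, which is across genes that share clusters and is given as a description.

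**Figure D1:**
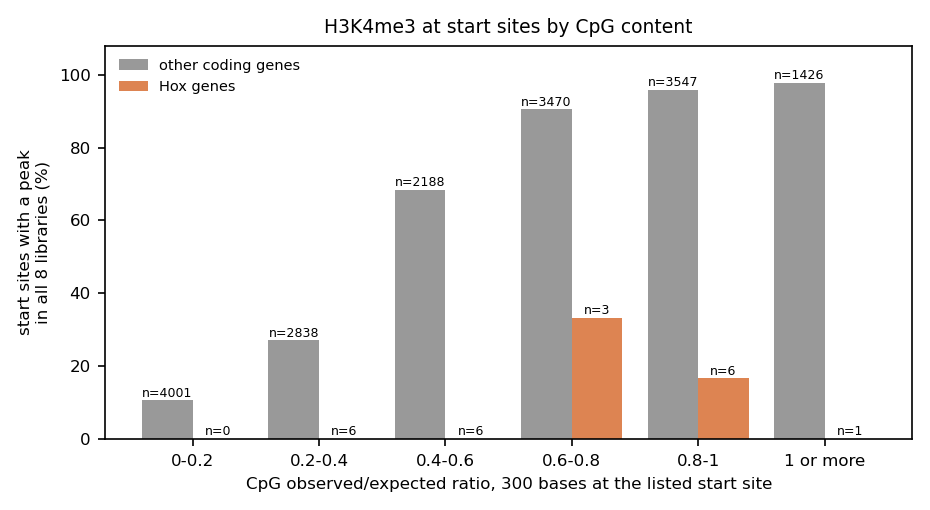
Share of listed start sites with a peak within 2 kb in all 8 libraries (percent, vertical axis) by ratio of observed to expected CpG in 300 bases (horizontal axis), for other coding genes (grey) and Hox genes (orange), with the number of genes above each bar. Between ratios of 0.8 and 1, 95.9% of the other genes and 1 of 6 Hox genes had a peak in all 8.

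In a window of 2 kb to each side of the better covered gene end (4001 bp), 2 of the 39 Hox genes (5.13%) had a peak in all 8 libraries, against 62.0% of the 21848 other coding genes. At least 4 libraries had a peak at 7 Hox genes (17.9%, against 67.5%), and no library had one at 12 (30.8%, against 26.5%). Per library, the number of Hox genes with a peak was 4, 6, 13 and 14 in transgenic replicates 1 to 4 and 4, 7, 8 and 10 in control replicates 1 to 4. The groups overlapped, and the 2 highest values were both transgenic. The means were 9.25 ± 4.99 and 7.25 ± 2.50 genes (SD, n = 4 each), with an exact two-sided permutation p of 0.543 (0.686 adjusted over 3 summaries). As shares these are 10.3 to 35.9% of Hox genes, against 65.8 to 68.0% of other coding genes in the same libraries. The Hox share was lower in 8 of 8 libraries, with a mean difference of −46.0 ± 9.31 percentage points (SD, 8 libraries). Where a peak was present it was also shorter, with a median covered length per library of 217 to 537.5 bp at Hox genes and 1547 to 1754 bp at other genes.

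The gene-end window can miss a start site inside a gene model. Over the whole gene with 2 kb to each side, an alternative added after the values were seen, 3 Hox genes (7.69%) had a peak in all 8 libraries, 10 in at least 4 and 9 in none (23.1%). Of other coding genes, 66.7% had a peak in all 8 and 22.0% in none, a share close to that of the Hox genes. The third gene was Hoxd10. The 9 without a peak were Hoxa11, Hoxa13, Hoxb2, Hoxb9, Hoxc4, Hoxc8, Hoxc11, Hoxc13 and Hoxd4. They come from all 4 clusters, and 5 of them belong to groups 9 to 13.

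**Figure D2:**
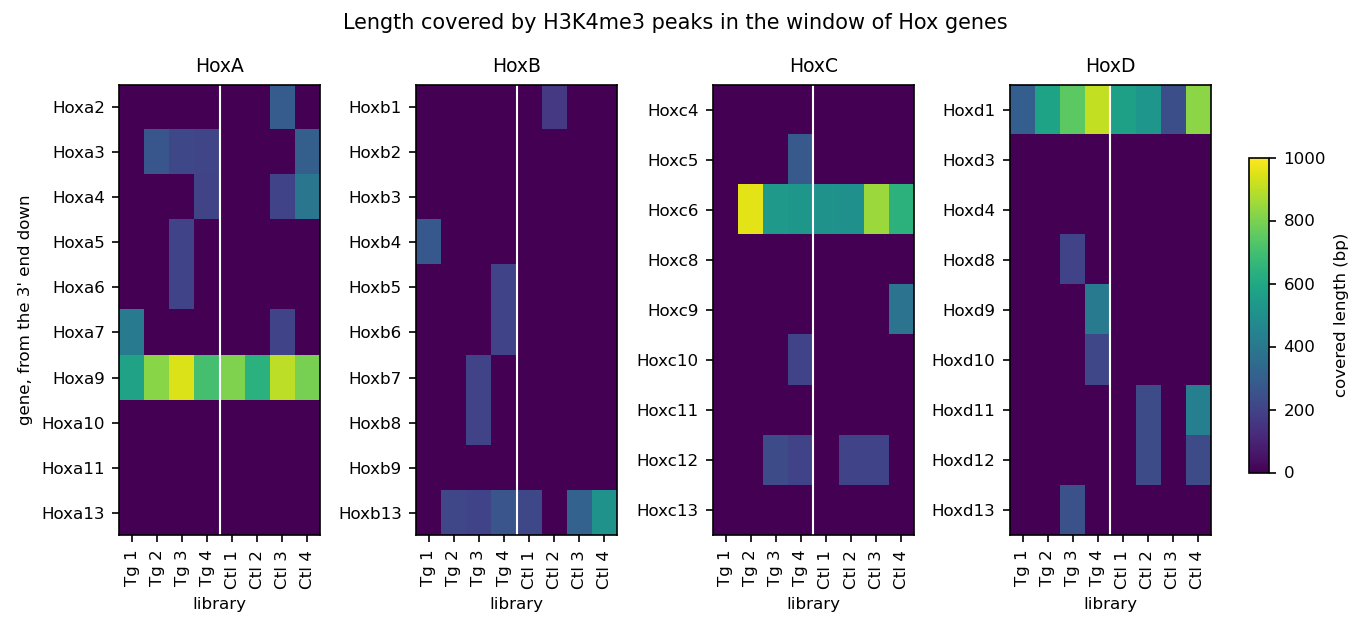
Length covered by H3K4me3 peaks (bp, colour) in the 4001-bp window of 38 Hox genes (rows, from the 3′ end of each cluster at the top) in each library (columns; Tg transgenic, Ctl control, with a white line between the groups). The rows of Hoxa9 and Hoxd1 are filled in all 8 libraries, that of Hoxc6 in 7, and most others in none or a few.

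Hoxa9, a gene of the trunk and of blood stem cells, had the longest covered length of all members. Its window was covered over 578, 824, 947 and 707 bp in transgenic replicates 1 to 4 and over 807, 637, 899 and 793 bp in control replicates 1 to 4. The groups overlapped throughout, and the lowest and the highest library were both transgenic. In limma the log2 difference between transgenic and control was −0.06 ± 0.16 (SE). The marked stretch was not at the listed start of Hoxa9, where no library had a peak within 2 kb. It was the region from 52221025 to 52222145 on chromosome 6, between Hoxa7 and Hoxa9, 952 bp beyond the 3′ end of Hoxa9 and overlapping no annotated gene. Its centre lay 3012 bp upstream of the listed start of Hoxa7, which specifies thoracic segments and had a peak in its own window in 2 libraries. This region had the highest fold enrichment in the 4 clusters, between 10.2 and 31.3 over the 8 libraries in the authors' peak lists, and ranked within the top 14.5 to 24.8% of the peaks of each list.

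Hoxd1, in the mouse a gene with a role in pain-sensing neurons, was covered over 298, 581, 748 and 908 bp in transgenic replicates 1 to 4. The control values were 567, 527, 240 and 828 bp. The groups overlapped, each with 1 library below 300 bp and 1 above 800 bp, and the log2 difference was 0.18 ± 0.35 (SE, limma). The region ran from 74762502 to 74763573 on chromosome 2, with its centre 57 bp from the start of Hoxd1, and also overlapped the end of Haglr, a long noncoding RNA gene. A peak over a shared stretch cannot be assigned to either gene. The fold enrichment was 4.19 to 14.6.

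Hoxd10 had a peak in only 1 library in the gene-end window, while its listed start site, inside the gene model, had one in all 8. Within 2 kb of that start, 718, 228, 669 and 804 bp were covered in transgenic replicates 1 to 4 and 681, 362, 254 and 430 bp in control replicates 1 to 4. The groups overlapped, and the 4 highest values were 3 transgenic and 1 control. In the fit at listed start sites the log2 difference was 0.35 ± 0.39 (SE, limma, adjusted p = 0.9996). The main region, from 74690944 to 74691826, was centred 506 bp from the start, and its fold enrichment of 4.61 to 9.81 was lower than that of the region beside Hoxa9 in every library.

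Hoxc6, a gene of the brachial spinal cord and the thorax, had a peak in 7 libraries. The covered length was 0, 958, 538 and 529 bp in transgenic replicates 1 to 4 and 508, 501, 849 and 641 bp in control replicates 1 to 4. Transgenic replicate 1 stood alone at 0, and the other 7 libraries overlapped between groups. The log2 difference was −0.67 ± 0.61 (SE, limma) with all libraries and 0.02 without transgenic replicate 1, so that 1 library set its direction. The region ran from 102998942 to 103000073 on chromosome 15, inside the Hoxc6 gene model, with its centre 1281 bp from the gene's 5′ end.

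Hoxb13, a gene of the tail bud and the prostate, had a peak in 6 libraries, with 0, 212, 200 and 263 bp covered in transgenic and 217, 0, 316 and 509 bp in control replicates 1 to 4. Each group had 1 library at 0. The log2 difference was −0.33 ± 0.68 (SE, limma), and 0.05 without transgenic replicate 1. A second stretch lay in the long interval between Hoxb13 and Hoxb9, 14210 bp from Hoxb13 and outside any annotated gene, from 96210820 to 96212012 on chromosome 11. It was covered over 400, 230, 276 and 0 bp in transgenic and 400, 234, 744 and 217 bp in control libraries, with a fold enrichment of 3.65 to 5.34.

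Of the members with a peak in 4 libraries, Hoxa3, needed for the thymus and the parathyroid, had 0, 269, 217 and 210 bp in transgenic and 0, 0, 0 and 304 bp in control replicates 1 to 4. It had a peak in 3 of 4 transgenic libraries and 1 of 4 control libraries, and the groups overlapped, with the highest value in a control library. The log2 difference was 0.77 ± 0.78 (SE), with an unadjusted p of 0.349 in limma. These values come from separate stretches. The peaks of transgenic replicates 2 and 3 and control replicate 4 lie in a region from 52167678 to 52168062, which overlaps the noncoding RNA gene Hoxaas2 and lies 997 bp beyond the 3′ end of Hoxa3, and that of transgenic replicate 4 lies apart from it. Within 2 kb of the listed start of Hoxa3, at the other end of the gene, control replicate 2 alone had a peak, of 253 bp. Hoxc12, of the 5′ part of HoxC, had 0, 0, 228 and 200 bp in transgenic and 0, 200, 200 and 0 bp in control libraries, that is, 2 libraries in each group, and a log2 difference of 0.01 ± 0.82 (SE, limma). These peaks also lie beyond the 3′ end of the gene, in separate stretches. Those of transgenic replicates 3 and 4 and control replicate 3 lie in a region 733 bp from Hoxc12. That of control replicate 2 lies in another, 1271 bp from Hoxc12. With a −log10 q-value of at least 5, Hoxc12 had a peak in 0 libraries.

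**Figure D3:**
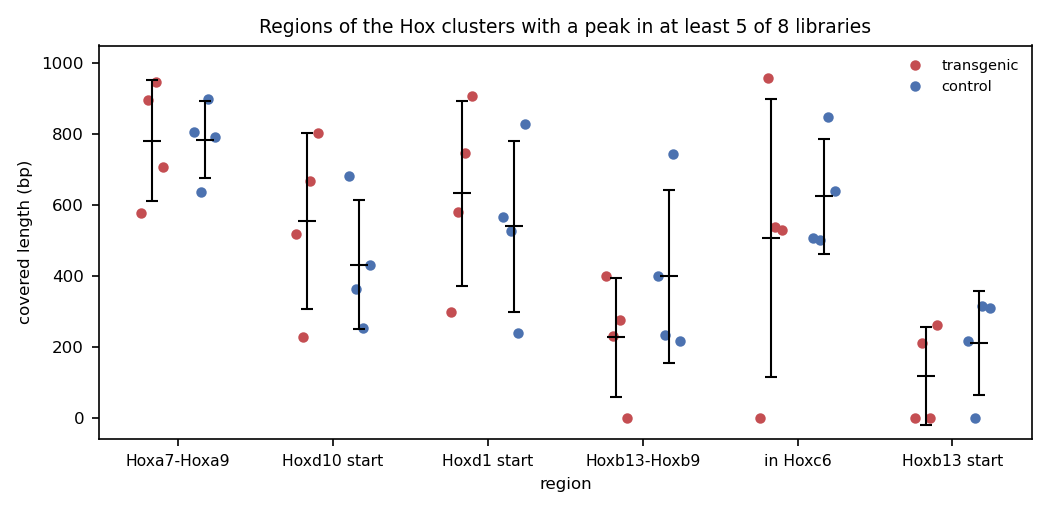
Covered length (bp, vertical axis) of the 6 Hox cluster regions marked in 5 or more of 8 libraries (horizontal axis), for transgenic (red) and control (blue) libraries, with the mean and SD of 4 in black. Points of the groups overlap in all 6 regions, and transgenic replicate 1 is at 0 in Hoxc6.

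None of the 7 members that passed the filter of at least 4 libraries with a peak differed between genotypes in limma's moderated test at a Benjamini-Hochberg adjusted p of 0.05 (0 of 7, adjusted p = 0.99984 for each). Over all 14753 promoters tested the share was 0%. At an unadjusted p under 0.05 the counts were 0 of 7 and 608 of 14753 (4.12%), and with limma's ordinary variance 0 of 7 and 5 of 14753 (0.0339%) passed the adjusted threshold. The fit at listed start sites called 0 of 6 members and 0 of 14654 genes. No member had groups that did not overlap, against 1.86% of promoters with all transgenic libraries higher and 0.481% with all lower. The direction was higher in the transgenic group for 4 members and lower for 3, with a median log2 difference of 0.01, beside −0.01 over all promoters tested. The 95% confidence intervals ran from −0.42 to 0.30 for Hoxa9 and from −0.60 to 0.96 for Hoxd1, and were wider for the others, from −0.98 to 2.52 for Hoxa3.

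The remaining members had few peaks. Hoxa4 had a peak in 3 libraries (1 transgenic and 2 control, 200 to 393 bp), and Hoxa7, Hoxd11 and Hoxd12 in 2 libraries each. Another 16 had a peak in 1 library only, of 165 to 414 bp: Hoxa2, Hoxa5, Hoxa6, Hoxb1, Hoxb4, Hoxb5, Hoxb6, Hoxb7, Hoxb8, Hoxc5, Hoxc9, Hoxc10, Hoxd8, Hoxd9, Hoxd10 and Hoxd13. For 13 of the 16 that library was transgenic, 6 in replicate 3, 6 in replicate 4 and 1 in replicate 1, and for 3 it was a control. Of 616 other coding genes with a peak in 1 library, that library was transgenic for 379 (61.5%). Of the 50 cluster regions found in 1 library it was transgenic for 29 (58%), against 65.9% of the 65239 such regions of the whole genome. 3 pairs of neighbours, Hoxa5 with Hoxa6, Hoxb5 with Hoxb6 and Hoxb7 with Hoxb8, were counted from a shared peak of 200 bp, and Hoxd10 with Hoxd9 shared a peak of 214 bp. No peak was listed in the window of Hoxa10, Hoxa11, Hoxa13, Hoxb2, Hoxb3, Hoxb9, Hoxc4, Hoxc8, Hoxc11, Hoxc13, Hoxd3 or Hoxd4.

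Marking did not follow the gene number from 3′ to 5′. At least 4 libraries had a peak at 3 of 8 members of groups 1 to 3, at 1 of 15 of groups 4 to 8 and at 3 of 16 of groups 9 to 13, a description with no test. Paralogs with 1 number had different counts in these windows: Hoxa9 had a peak in 8 libraries, Hoxc9 and Hoxd9 in 1 and Hoxb9 in 0, but the Hoxa9 stretch lies beyond its 3′ end, and at listed start sites Hoxa9 had 0 and Hoxd9 had 1. Hoxb13 had one in 6 while Hoxd13 had one in 1 and Hoxa13 and Hoxc13 in 0. By cluster, the members with a peak in at least 4 libraries numbered 3 of 11 in HoxA, 1 of 10 in HoxB, 2 of 9 in HoxC and 1 of 9 in HoxD. These tallies depend on the window: over the whole gene with 2 kb to each side they were 3, 2, 2 and 3, with Hoxd3 and Hoxd10 added in HoxD and Hoxb3 in HoxB, and 5 of 8, 1 of 15 and 4 of 16 by gene number.

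**Figure D4:**
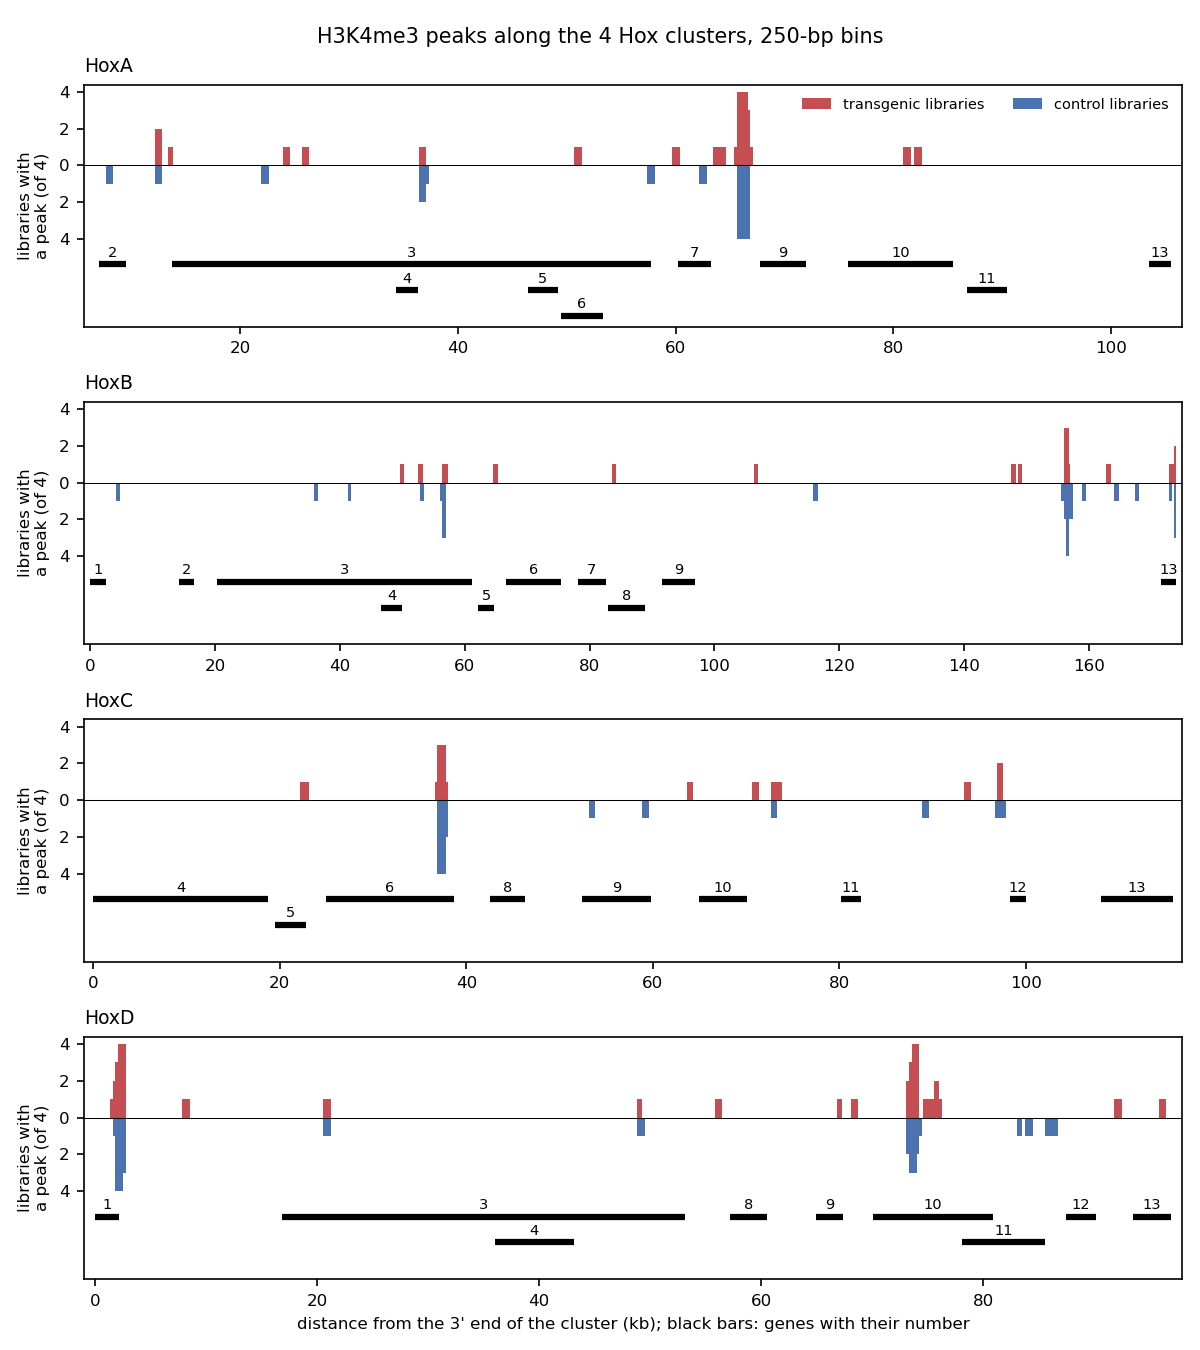
Number of transgenic libraries (red, upward) and control libraries (blue, downward) with a peak in each 250-bp bin along the 4 Hox clusters, by distance from the 3′ end (kb); the outermost 3′ stretch of HoxA is not drawn. Black bars are the genes with their numbers, and a few isolated stretches are shared by all or most libraries while the rest of each cluster is bare or marked in single libraries.

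Over whole clusters, the 8 lists together placed 66 regions, and 5 of them had a peak in at least 6 libraries. These 5 are the stretches described above beside Hoxa9, at Hoxd1, at Hoxd10, in Hoxc6 and between Hoxb13 and Hoxb9. They held 52.1% of all covered length in the clusters, from 25.9% in HoxB to 69.9% in HoxD. Of the 66 regions, 50 (75.8%) had a peak in 1 library only, against 47.3% of the 137922 regions of the whole genome, and 3 (4.55%) had one in all 8, against 16.9%. No region found in a single library was longer than 398 bp. The 41 peaks inside the 5 recurrent regions had a median width of 529 bp and a median fold enrichment of 7.86 in the authors' peak lists, and 4 of them were 200 bp long, the shortest peak length in the lists. The other 83 peaks had a median width of 214 bp and a median fold enrichment of 4.19, and 35 of them (42.2%) were 200 bp long.

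The HoxA cluster was covered over 1192, 1744, 2193 and 1706 bp in transgenic replicates 1 to 4 and 807, 890, 1789 and 1690 bp in control replicates 1 to 4. HoxD had 1216, 1523, 2064 and 2332 bp in transgenic and 1478, 1118, 953 and 1688 bp in control libraries. In both clusters the mean was higher in the transgenic group, by 414.75 and 474.5 bp, and the groups overlapped (exact permutation p of 0.257 and 0.171, adjusted 0.343 for both over 4 clusters). HoxB had 1102, 1229, 1114 and 325 bp in transgenic and 1533, 759, 1880 and 1238 bp in control libraries, a mean difference of −410.0 bp (exact permutation p of 0.257, adjusted 0.343). HoxC had 0, 1406, 979 and 1605 bp in transgenic and 508, 701, 1845 and 1023 bp in control libraries, a mean difference of −21.75 bp (exact permutation p of 0.971). Transgenic replicate 1 had no peak in HoxC at all, and without it the HoxC difference was 310.75 bp. With 4 libraries against 4 the smallest two-sided p is 0.0286, which none of the 4 clusters reached.

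**Figure D5:**
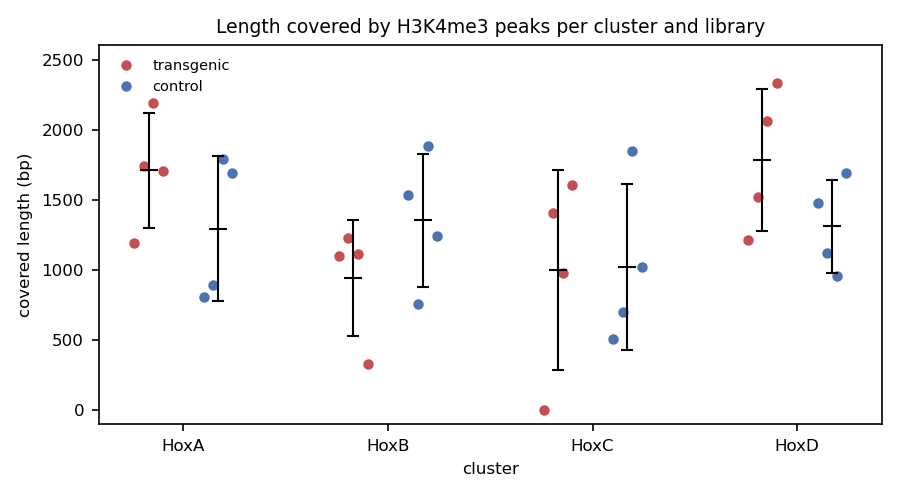
Length covered by H3K4me3 peaks (bp, vertical axis) in each Hox cluster (horizontal axis) per library, transgenic in red and control in blue, with the mean and SD of 4 libraries in black. The groups overlap in all 4 clusters, and 1 transgenic library is at 0 in HoxC.

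Per length, all 4 clusters together were 0.705 to 1.31% covered, and the 100 kb on each side of them 0.699 to 1.06%. The clusters were covered more than their flanks in 7 of 8 libraries, by 0.162 ± 0.201 percentage points on average (SD, 8 libraries). HoxA had a mean of 1.42% in the cluster and 0.531% in its flanks, and HoxB had 0.660 and 0.701%, HoxC 0.871 and 0.716%, and HoxD 1.60 and 1.63%. In the region fit, 16 cluster regions marked in 2 or more libraries were tested and none passed an adjusted p of 0.05 in limma, against 35 of 72683 regions genome-wide (0.0482%). At an unadjusted p under 0.05 there were also 0 of 16, against 6.31%. A stretch inside Hoxb3 (96311199 to 96311877 on chromosome 11) had a log2 difference of −1.01 ± 0.81 (SE). The Hoxb3 stretch was covered over 0, 0, 438 and 0 bp in transgenic and 541, 0, 200 and 242 bp in control libraries.

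Noncoding genes of the clusters were sparsely marked, as were the Hox genes. Of 24 long noncoding RNA genes, 5 (20.8%) had a peak in at least 4 libraries and 10 (41.7%) in none. Among the 39 Hox genes the shares were 17.9 and 30.8%. Haglr had a peak in all 8 libraries and Gm29905 in 7, in both cases from the stretch counted at Hoxd1 and Hoxc6. Hoxaas2 had one in 4, from the stretches counted at Hoxa3. Hotair, which in human cells binds Polycomb proteins, had a peak in 1 library in the window of its better covered end. That peak, of 398 bp in transgenic replicate 4, lies outside the gene. Another of 220 bp lies inside the gene, in control replicate 3, and is not counted in that window. Of 6 microRNA genes, Mir10a in HoxB had a peak in 2 libraries, Mir196a-2 and Mir615 in 1, and Mir10b, Mir196a-1 and Mir196b in none.

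Most genes for proteins that work with Hox factors or act on Hox chromatin were marked in every library, over lengths that varied. All 9 cofactor genes of the Pbx, Meis and Pknox families, whose products bind DNA with Hox proteins, were marked in all 8 libraries, the widest being Meis2 with a mean of 3566 bp and Pbx2 with 2930 bp and the narrowest Pbx4 with 964 bp. Of 20 Polycomb genes 19 did, led by Jarid2 with 3103 bp and Pcgf2 with 2811 bp, and of 12 trithorax and related genes 10 did, led by Kmt2a with 3566 bp and Ash1l with 2745 bp. Cbx7, Ash2l and Dpy30 had no peak in the gene-end window, which does not cover start sites inside a gene model. None of these genes was called between genotypes, with 9, 19 and 10 tested and median log2 differences of −0.02, −0.04 and −0.01.

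Homeobox relatives of the Hox genes outside the clusters were marked unevenly. Of 8 ParaHox and Evx genes, Cdx4 on the X chromosome had a peak in all 8 libraries, with 644 bp on average and 225 to 1380 bp over libraries. Gsx1, a forebrain gene, had one in 6 and Gsx2 in 5, Pdx1 in 2, and Cdx1, Cdx2, Evx1 and Evx2 in none. The lists differed in the length covered outside the autosomes, where Cdx4 lies. Transgenic replicate 1 covered 57.7 Mb in total and 46.7 Mb on autosomes, and transgenic replicate 2 covered 45.8 and 44.7 Mb. The values were 42.7 and 38.1 Mb in control replicate 2 and 43.1 and 41.6 Mb in control replicate 4. The part of this in the Cdx4 values was not tested. Evx1 and Evx2 are next to the 5′ ends of HoxA and HoxD. Of the 16 coding genes that flank the clusters, these 2 included, 12 had a peak in all 8 libraries, the widest being Cbx5 with 2502 bp and Atp5g2 with 2415 bp, and none of the 13 tested was called.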

How the data were processed

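The tools named, per the submitters' processing notes, were MACS2, DiffBind and limma besides Bowtie2 2.0.2, SAMtools 1.3.1, FastQC 0.11.5 and deepTools 3.0.1, with build mm10, in roles and with settings that are not stated, nor is the background library of each list. Of each library the authors deposited 1 list, giving each peak's position, score, fold enrichment and −log10 p-value and q-value. From the fold and the −log10 p-value deposited, peaks were described and ranked within a list, and the score was not used further. The 2 samples named input were not analysed here. Peaks were called per library, so that depth or the quality of a precipitation can change the number and width of peaks.

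Peaks of a library were merged. Gene positions were RefSeq's for GRCm38.p6, and the window was centred on the gene end with the higher mean coverage over all 8 libraries, since not every gene has a listed start. Breadth was compared as log2(bp + 100 bp), with each library centred on its median over promoters marked in all 8, in limma 3.58.1 in R 4.3.3 (trended, robust variance) over 14753 promoters with a peak in at least 4 libraries, and over 72683 regions (union of the lists, at least 2 libraries, an overlap of 1 bp). The scale understates changes of thinly covered promoters. Adjustment was by Benjamini and Hochberg at 0.05. For 1 value per library, exact permutation tests (two-sided, 70 assignments) were used. Scripts were tested on simulated data. Comparisons of Hox genes with other genes are given per library, with no test.

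Values are given for members with a peak in at least 4 libraries and for the widest regions of each cluster, and from other lists for the 2 widest genes. Values of 1 member are not reported here, while counts and totals include it. The members and lists were chosen with earlier results of these data known. The alternatives were other pseudocounts, filters, windows, start sites, scalings, peak thresholds, a variance setting, a block on the replicate number and leaving out each library.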

Additional observations from a re-analysis of the deposited data

Results flagged for a closer look

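Of 40 groups of 4 libraries examined, 4 had 1 library far from the other 3, judged by its gap to the nearest divided by the group's range, and chance gives about 1 in 20. Where 3 libraries are at 0 and 1 is above, as at Hoxa3 and Hoxb3, that ratio is fixed at its maximum and the rate does not apply. At Hoxa3 1 control library had 304 bp and the other 3 had 0. In the region inside Hoxb3 1 transgenic library had 438 bp and the other 3 had 0. The HoxB cluster had 325 bp in 1 transgenic library and 1102 to 1229 bp in the other 3. The 4 clusters together had 3510 bp in transgenic replicate 1 and 5902 to 6350 bp in the other 3 transgenic libraries. That library also had the most peaks and the lowest median fold enrichment, and the part of this in the Hox values was not tested.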

How the results depend on the processing

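No Hox promoter passed the adjusted threshold in any of 21 alternatives, nor any cluster region in any of 13. The transgenic minus control difference of HoxA and of HoxD stayed above 0 and that of HoxB below 0 in all 13 alternatives of each. With 1 library left out HoxA ran from 252 to 587 bp, HoxB from −608 to −204 bp and HoxD from 292 to 664 bp. HoxA was smallest at 78.5 bp and HoxD at 122 bp with equal numbers of peaks, and HoxB at −130.5 bp with a −log10 q-value of at least 5. HoxC ran from −224 to 310.75 bp over these, and reversed to 310.75 bp without transgenic replicate 1 and 253.5 bp without control replicate 3. The number of Hox genes with a peak, 2 more in the transgenic group, ran from 0.417 to 3.75 more with 1 library left out and reversed to −0.5 where at least 500 bp had to be covered.

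Of 231 values of single promoters and regions under alternatives, 213 kept their direction and 18 reversed. With 1 library left out the log2 difference ran from −0.15 to 0.0082 at Hoxa9, from −0.86 to 0.054 at Hoxb13, from −0.28 to 0.29 at Hoxc12, from −1.07 to 0.019 at Hoxc6, from −0.089 to 0.41 at Hoxd1, from −0.18 to 0.35 in the Hoxd1 region and from −0.021 to 0.46 in the Hoxd10 region. It was also 0.12 at Hoxa9 with windows of 5 kb, −0.33 at Hoxc12 with quantile normalization and −0.0057 with a pseudocount of 1000 bp, and −0.46 in the Hoxd10 region with equal numbers of peaks. The cause was not tested. With a −log10 q-value of at least 5, 1 Hox gene had a peak in all 8 libraries, 3 in at least 4 and 23 in none. With equal numbers of peaks the counts were 1, 4 and 17, and at listed start sites 2, 6 and 15. Same-numbered libraries did not deviate together (correlations of −0.06, −0.13, −0.16 and 0.17), so the numbers were not taken as pairs, and the replicate block gave 0 called promoters and 0 called regions. The depth behind each list is unknown, which limits what a missing short peak shows, and Hoxd10 was missed by the gene-end window.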
